A study of Homo sapiens with 18 samples.

Results

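ATAC-seq, which maps open chromatin, was run on UM-SCC-1 (SCC1) and UM-SCC-6 (SCC6), established cell lines of head and neck squamous cell carcinoma (HNSCC) that the study chose as cetuximab-sensitive, and the question was where the response of SCC6 differed from the response of SCC1. Of the 18 samples in the series, 17 had a library in the table and 11 belong to these lines: 3 SCC6 libraries from cells given 100 nM cetuximab daily for 5 days, 3 SCC6 libraries from cells given phosphate-buffered saline (PBS), 3 cetuximab-treated SCC1 libraries and 2 PBS-treated SCC1 libraries (replicates 1 and 3). No genotype, transgene or other agent is given for any of these groups, each line is 1 culture model, and no label says that replicates of a group were separate cultures, so p-values measure the spread between these libraries, which may be technical. The table listed 115087 regions, of which 86315 were tested after the lowest 25% by mean signal were left out. For each region the change in a line is the cetuximab mean minus the PBS mean of log2(signal + 1), and the difference between the lines, called the interaction here, is the SCC6 change minus the SCC1 change, so a positive difference means that the signal went further up, or less far down, in SCC6.

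Cetuximab is an antibody that binds the extracellular domain of the epidermal growth factor receptor (EGFR) and keeps ligands such as amphiregulin and TGF-alpha from activating it. EGFR signals through the RAS, ERK and PI3K pathways, and one of the nuclear endpoints of ERK is AP-1, the dimer of FOS and JUN family proteins that occupies many open enhancers in squamous epithelium. TEAD proteins, which carry the co-activators YAP and TAZ, often sit at the same enhancers, and TFAP2A is a regulator of epithelial genes. In ATAC-seq the Tn5 transposase inserts sequencing adapters into DNA that is not covered by nucleosomes, so reads pile up over open promoters and enhancers. The libraries were made from bulk cells, in which a larger share of cells with an open region cannot be told apart from a region that is more open in each cell.

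Sequence of 5 regions, taken from different kinds of divergent response, is shown to give these regions a concrete form. All are the central 200 bases in the forward strand of GRCh37, and capitals mark a match to the AP-1 motif (TGACTCA), the TEAD motif (GGAATGT) or the TFAP2 motif (GCCNNNGGC), on either strand. The TRPC6 sequence (chr11:101349529-101349728) comes from the region that moved in opposite ways with the smallest adjusted p, and the RALGPS1 sequence (chr9:129747345-129747544) from one that moved the reverse way. The KIAA0040 sequence (chr1:175191268-175191467) was called in SCC6 only and held none of the 3 motifs. The other sequences, on the side of CNTN5 (chr11:97836842-97837041) and in LINC00578 (chr3:177307815-177308014), come from the regions called lower in SCC1 only, and each holds 1 AP-1 motif.
TRPC6 intron: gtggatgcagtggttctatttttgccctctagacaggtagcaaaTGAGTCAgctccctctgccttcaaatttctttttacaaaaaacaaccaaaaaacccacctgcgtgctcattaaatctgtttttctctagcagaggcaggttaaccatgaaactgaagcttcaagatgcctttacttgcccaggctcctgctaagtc
RALGPS1 intron: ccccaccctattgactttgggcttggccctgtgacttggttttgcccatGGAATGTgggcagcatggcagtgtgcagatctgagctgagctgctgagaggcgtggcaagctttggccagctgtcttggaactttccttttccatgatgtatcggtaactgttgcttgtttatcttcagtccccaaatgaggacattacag
KIAA0040 side: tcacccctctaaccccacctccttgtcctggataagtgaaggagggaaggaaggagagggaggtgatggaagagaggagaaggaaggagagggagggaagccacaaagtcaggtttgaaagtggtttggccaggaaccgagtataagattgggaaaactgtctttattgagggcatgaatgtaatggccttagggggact
CNTN5 side: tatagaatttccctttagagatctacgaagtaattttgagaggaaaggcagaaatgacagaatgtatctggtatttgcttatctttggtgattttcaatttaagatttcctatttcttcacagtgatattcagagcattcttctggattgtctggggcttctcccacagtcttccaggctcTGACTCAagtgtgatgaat
LINC00578: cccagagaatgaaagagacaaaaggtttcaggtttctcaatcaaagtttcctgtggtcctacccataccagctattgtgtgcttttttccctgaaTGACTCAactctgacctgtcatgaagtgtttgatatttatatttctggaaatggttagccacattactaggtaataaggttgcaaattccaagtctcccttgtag

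The SCC1 libraries were shallower than the SCC6 libraries. Between 2194851 and 4171650 reads fell in the regions in SCC1, where the median region held 7 to 15 reads, against 4098164 to 15017130 reads and 17 to 68 reads in the median region in SCC6. Cetuximab replicate 2 was the shallowest SCC1 library and cetuximab replicate 3 the deepest SCC6 library. The median standard error (SE) of the change was 0.394 in SCC1 and 0.352 in SCC6, and 0.528 for their difference. The 4 groups shared 1 estimate of the spread for each region. The SEs of the lines therefore differ by the number of libraries, with 2 PBS-treated in SCC1, and not by depth. Many differences below 1 on the log2 scale were not detectable. The promoters of the epithelial genes CDH1, EPCAM, KRT8 and ESRP1 and of the squamous gene PERP carried signal in every library of both lines. The KRT14 promoter did not: its signal was 35.1 to 78.7 in SCC1 and 1.01 to 2.79 in SCC6, so this squamous keratin was not among the open promoters of SCC6. No promoter region of any of the 9 leukocyte or endothelial markers was in the table, whereas the promoter of COL1A1, a fibroblast collagen, lay at 88.5 to 176 in SCC1 and 99 to 148 in SCC6. Of the other fibroblast markers, COL1A2 was at 29.7 to 60.3 in SCC1 and at 3.62 to 17.4 in SCC6, with a peak in 0 SCC6 libraries, DCN was at 7.82 or less in every library, and PDGFRB and LUM had no promoter region in the table.

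The lines differed in their response at 9108 of 86315 regions (10.6%, limma, adjusted p < 0.05, two-sided), where 21564 regions had an unadjusted p under 0.05. The SCC6 change was above the SCC1 change at 5825 of them (6.75% of the regions tested) and below it at 3283 (3.8%). By the calls within each line, 460 regions moved in opposite ways (0.533%), 4105 were called in SCC6 only (4.76%), 3492 in SCC1 only (4.05%), 108 moved the same way to unequal extents (0.125%), and 943 were called in neither line alone (1.09%). Many regions called in only 1 line had no call on the difference. Of the regions called in SCC6 and not in SCC1, 36.6% had an interaction and 7121 had none, and of those called in SCC1 and not in SCC6, 43.2% had one and 4590 had none. Within each line, 8550 regions were called higher (9.91%) and 5285 lower (6.12%) in SCC6, and 4735 higher (5.49%) and 5956 lower (6.9%) in SCC1. Where both lines were called, most regions moved together, 2149 of 2609.

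**Figure D1:**
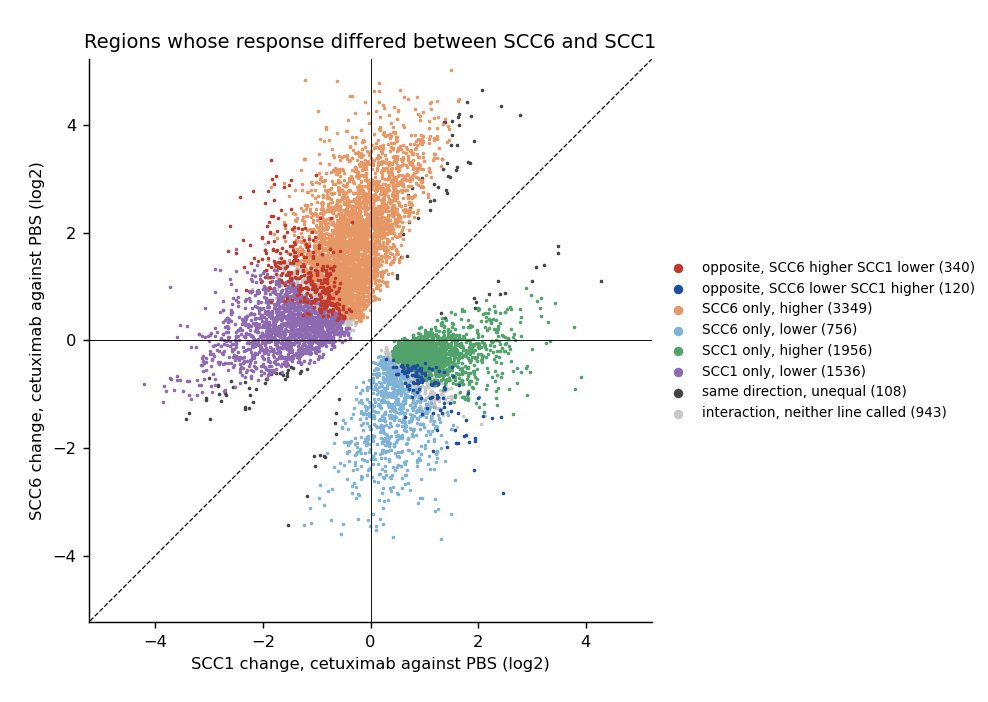
Change under cetuximab in SCC1 (horizontal axis, log2) against the change in SCC6 (vertical axis, log2), with 1 point for each region that had an interaction, coloured by class. The 460 regions that moved in opposite ways fill the upper left (340 regions) and lower right (120 regions), while regions called in 1 line only lie along an axis.

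How many regions fell on each side depended on how the libraries were scaled to each other, because the median of the difference over all tested regions moved from 0.13 with the deposited scaling to -0.25 when each library was centred on its own median and to 0.40 when libraries were scaled to reads in regions that hold no peak. With those scalings the interaction split was 3174 above and 8884 below, and 9804 above and 1626 below, in place of 5825 and 3283. Calls at single regions depended on the scaling as well, and 2523 regions (27.7%) kept their class under all 5 others. The call on the difference was kept, in the same direction, under all 5 other scalings (centring, quantile, cyclic loess, regions that hold no peak, and removal of the trend with GC content) at 3637 of the 9108 regions (39.9%), including 443 of the 460 that moved in opposite ways. In those 460, both changes kept their signs under all 5 scalings at 459 regions, but both also stayed past the threshold at only 90 (19.6%). The opposite direction of the lines is therefore given as a count of signs, and the size of each line's own change moves with the scaling.

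Among the regions that moved in opposite ways, 340 (0.394% of those tested) gained signal in SCC6 and lost it in SCC1. Their median signal rose from 32.8 to 73.4 in SCC6 and fell from 91.4 to 41.5 in SCC1, a median change of 1.16 against -1.13 on the log2 scale. The median was thus higher in SCC1 in untreated cells and higher in SCC6 after cetuximab. Choosing regions for a rise in SCC6 and a fall in SCC1 itself favours this order. They were mostly distal, with 3.82% within 1 kb of a protein-coding start site against 16.6% of all tested regions. The other 120 regions (0.139%) lost signal in SCC6, from a median of 114 to 72.7, and gained it in SCC1, from 53.8 to 109. Of these, 44.2% were at promoters and the median GC content was 63.0%, against 46.2% in the first group and 46.9% over all tested regions. The treated and untreated libraries did not overlap in either line at 456 of the 460 regions, which the choice of the regions by these same changes favours.

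Without SCC1 PBS replicate 1 the opposite regions numbered 143, and without SCC1 PBS replicate 3 they numbered 241, so the count rests on both untreated SCC1 libraries. The split between the directions was then closer, at 83 and 60 in the first case and 124 and 117 in the second. Without SCC1 cetuximab replicate 2 it was 454 and 350. Leaving out 1 SCC6 library left 170 to 275 regions in the first group and 45 to 80 in the second. With the GC trend removed they numbered 149 and 116, and with edgeR on reads recovered from the signal 453 and 684.

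The smallest adjusted p of any opposite region belonged to an intron of TRPC6, a calcium-permeable channel gene (chr11:101349223-101350035). Its signal was 384, 337 and 347 in untreated SCC6 and 1701, 1648 and 1564 after cetuximab, whereas in SCC1 it was 291 and 287 untreated and 194, 237 and 252 after cetuximab. All treated SCC6 libraries were thus above all untreated ones and all treated SCC1 libraries below, with no overlap in either line. The SCC6 change was 2.20 ± 0.10 (SE) and the SCC1 change -0.35 ± 0.11, a difference of 2.55 ± 0.15 (limma adjusted p = 2.37e-07), which lay between 2.17 and 2.83 under every alternative tried. The loss in SCC1 was small, its adjusted p was 0.0479, and the region stayed opposite, with both changes past the threshold, under only 2 of the 5 other scalings.

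Of the next 4 regions by adjusted p in this direction, 3 lay on the long arm of chromosome 8. An intron of POU5F1B, a retrogene of the pluripotency factor gene POU5F1, was at 24.2, 36.8 and 21.8 in untreated SCC6 and at 201, 213 and 246 after cetuximab. In SCC1 the same region went from 101.5 and 91.6 to 29.2, 33.1 and 40.7, giving a difference of 4.46 ± 0.33 (adjusted p = 4.91e-06). In PVT1, the long non-coding gene beside MYC and 447 kb from the start of MYC, SCC6 went from 145, 130 and 152 to 504, 438 and 464 and SCC1 from 170 and 217 to 116, 107 and 78.2. Both regions, and an intron of ANXA13 on the same chromosome (difference 3.69 ± 0.32), kept their opposite call under all 5 other scalings. An intron of STON2, an endocytic adaptor (chr14:81797032-81797777), was the region with the lowest untreated SCC6 signal of the 5, at 7.25, 8.7 and 7.61, and reached 76.8, 68.7 and 73.4. In SCC1 it fell from 185 and 172 to 103, 113 and 57.9, and it stayed opposite under 3 of the 5 scalings.

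In the reverse direction, the region with the smallest adjusted p lay in the non-coding gene LINC01588 (chr14:50474131-50474556). SCC6 fell from 152, 136 and 148 to 52.5, 67.8 and 48.3 while SCC1 rose from 49.4 and 48.0 to 93.9, 105 and 87.6, so that treated SCC6 came close to untreated SCC1, while treated SCC1 stayed below untreated SCC6 without overlap (difference -2.32 ± 0.27, adjusted p = 0.000135). A region in the intron of RALGPS1, an exchange factor for the small GTPase RAL (chr9:129747296-129747594), was at 53.2, 51.5 and 70.7 in untreated SCC6 and at 4.04, 8.36 and 10.9 after cetuximab. In untreated SCC1 it was at 1.3 and 1.12, the value of a single read or none in each library, and in treated SCC1 at 8.89, 19.5 and 7.82, so the SCC1 change of 2.46 is set partly by that lowest listed value. Near GRHL1, a grainyhead factor gene of epithelia, a region 7.01 kb from the start site (chr2:10084491-10084807) fell from 33.8, 50.9 and 45.7 to 12.1, 11.1 and 11.2 in SCC6. In SCC1 it rose from 14.3 and 11.2 to 43.2, 44.8 and 70.4 (difference -3.75 ± 0.46, adjusted p = 0.000261). A region 11.5 kb from PIM3, a serine/threonine kinase gene (chr22:50342724-50342908), fell from 120, 97.7 and 123 to 42.4, 60.3 and 48.3 in SCC6 and rose from 31.2 and 32.4 to 107, 68.1 and 79.8 in SCC1. All of these kept the opposite call under all 5 other scalings, which the promoter shared by TMEM205, CCDC159 and RAB3D (chr19:11456877-11457427, SCC1 change 1.51 ± 0.18, SCC6 change -0.49 ± 0.16) did under only 1.

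**Figure D2:**
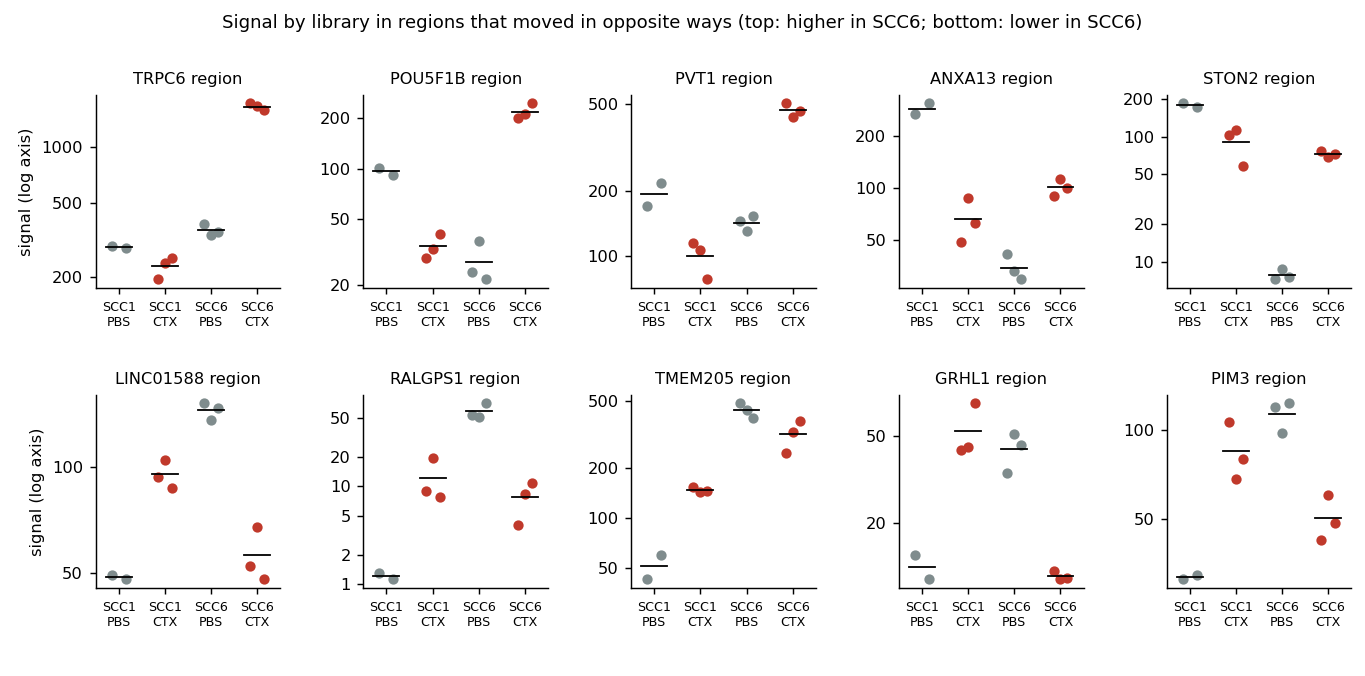
Signal (log axis) of each of the 11 libraries in regions that moved in opposite ways, with PBS and cetuximab side by side for SCC1 and SCC6. The top panels show the regions that were higher in SCC6 and lower in SCC1 after cetuximab and the bottom panels the reverse, and regions were chosen so that the treated and untreated points of a line do not overlap.

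SCC6-only regions were mainly gains with the deposited scaling. Of the 4105, 3349 were higher after cetuximab in SCC6 (3.88% of those tested) and 756 lower (0.876%). When each library was centred on its median, 2088 were higher and 2433 lower, and quantile normalization gave 3950 and 2812. The 3349 gains started from low signal, a median of 11.6 in untreated SCC6, and reached 47.3 after cetuximab. The same regions stood at 46.4 and 38.8 in untreated and treated SCC1. Each median was taken separately over the 3349 regions, and the treated SCC6 median came near the untreated SCC1 median. Choosing regions for a rise in SCC6, after a filter on mean signal over the 11 libraries, itself favours a low SCC6 start beside SCC1. Only 3.02% of the 3349 were promoters. The 756 losses went from a median of 56.4 to 19.8 in SCC6 and from 35.1 to 43.0 in SCC1. An absent call in SCC1 does not show an absent change: the 95% interval of the SCC1 change lay within ±1 on the log2 scale in 1508 of the 4105 regions (36.7%). No SCC1 library had a peak in 41.6% of them, against 51.1% of all tested regions.

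Between KIAA0040 and its neighbour, 28.9 kb from the nearest start site (chr1:175190942-175191795), the signal of untreated SCC6 was 74.9, 75.6 and 82.7 and that of treated SCC6 306, 321 and 312. SCC1 was at 327 and 386 untreated and at 315, 323 and 346 treated, so the treated SCC6 libraries came close to the SCC1 range, and 2 of them lay below its lowest library. The SCC6 change was 2.00 ± 0.11, the SCC1 change -0.12 with a 95% interval from -0.38 to 0.15, and the difference 2.11 ± 0.17 (limma adjusted p = 1.09e-05). An intron of MBNL1, which encodes a splicing regulator (chr3:152170120-152170484), was nearly closed in untreated SCC6 at 9.67, 7.36 and 7.61 and opened to 118, 110 and 121, above the 74.0 to 86 seen in all 5 SCC1 libraries. A further gain, in a non-coding gene 183 kb from RFC3 (chr13:34207923-34208982), went from 24.2, 23.4 and 26.1 to 217, 215 and 207 in SCC6. There SCC1 was at 178 and 239 untreated and 250, 249 and 294 treated, and the region kept its SCC6-only call under 3 of the 5 scalings, while the first pair did so under all 5.

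Among SCC6-only losses, a region 12.9 kb from DDIT4, a stress-induced inhibitor of mTORC1 (chr10:74020258-74020747), fell from 139, 127 and 165 to 53.5, 60.3 and 57.2 in SCC6. In SCC1 it was at 118 and 121 untreated and at 147, 150 and 192 treated, a change of 0.44 ± 0.18 (adjusted p = 0.126). A region 87.8 kb from CDH5 (chr16:66311855-66312834) fell from 324, 307 and 361 to 164, 167 and 156 in SCC6 and was at 155 and 153 and then 171, 195 and 210 in SCC1. The loss 49.1 kb from SDR16C5, on chromosome 8, was of 1.68 ± 0.16 on the log2 scale. For all 3 the SCC1 value lay above 0, by 0.31 to 0.47, and the SCC6-only call was lost in 1 or 2 of the 5 scalings.

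SCC1-only regions divided, with the deposited scaling, into promoter gains and distal losses. Centring each library on its median gave 4225 gains and 645 losses, and scaling to regions that hold no peak 1042 and 2451. Of the 3492, 1956 were higher in treated SCC1 (2.27% of those tested), with a median signal that went from 61.9 to 124 in SCC1 and from 103 to 88.4 in SCC6. Promoters made up 68.0% of this group and its median GC content was 65.9%. The 1536 losses (1.78%) fell from a median of 71.3 to 23.0 in SCC1 and lay at 48.8 and 56.2 in SCC6, and 4.56% were promoters. The 95% interval of the SCC6 change was within ±1 at 2510 of the 3492 (71.9%). This was a larger share than the 36.7% for the SCC1 change in the SCC6-only regions. Over all tested regions the shares were 36.1% for the SCC6 change and 27.6% for the SCC1 change. The classes also differ in promoters, 40.1% of SCC1-only and 5.75% of SCC6-only regions, and the cause was not tested. Leaving out SCC1 cetuximab replicate 2, the shallowest library, moved the SCC1-only class most upwards, to 5451 regions. Leaving out SCC1 PBS replicate 1 moved it most downwards, to 1533.

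The most distal of the named losses lay 1054 kb from the nearest protein-coding start, that of CNTN5 (chr11:97836669-97837215). Its signal fell from 154 and 109 to 24.1, 19.5 and 17.2 in SCC1 and was 379, 368 and 374 in untreated and 445, 400 and 334 in treated SCC6, where treated and untreated libraries overlapped. The SCC1 change was -2.63 ± 0.19 and the SCC6 change 0.06 with a 95% interval from -0.29 to 0.41 (difference 2.69 ± 0.25, adjusted p = 2.96e-05). In LINC00578 (chr3:177307674-177308156) SCC1 fell from 308 and 322 to 72.3, 95.4 and 72.0, and SCC6 stood at 203, 194 and 197 without and at 200, 190 and 204 with cetuximab. Both kept their SCC1-only call under all 5 other scalings, as 259 of the 1536 losses did (16.9%).

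Among SCC1-only gains, the promoter of UNC13D, a gene of granule exocytosis (chr17:73840533-73841653), rose from 168 and 166 to 463, 341 and 474 in SCC1 and was at 255, 259 and 262 and then 220, 255 and 254 in SCC6. The promoter of FBXL12, an F-box ubiquitin ligase subunit (chr19:9929462-9930532), rose from 100 and 91.6 to 225, 216 and 274 in SCC1, still below the lowest SCC6 library at 413. A region 21.6 kb from PWWP2B (chr10:134232316-134232759) rose from 96.3 and 104 to 240, 200 and 210 in SCC1. Its SCC6 signal was 172, 179 and 174 untreated and 128, 149 and 136 treated, a change of -0.34 ± 0.13 (adjusted p = 0.0851), so it came near to the opposite class.

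**Figure D3:**
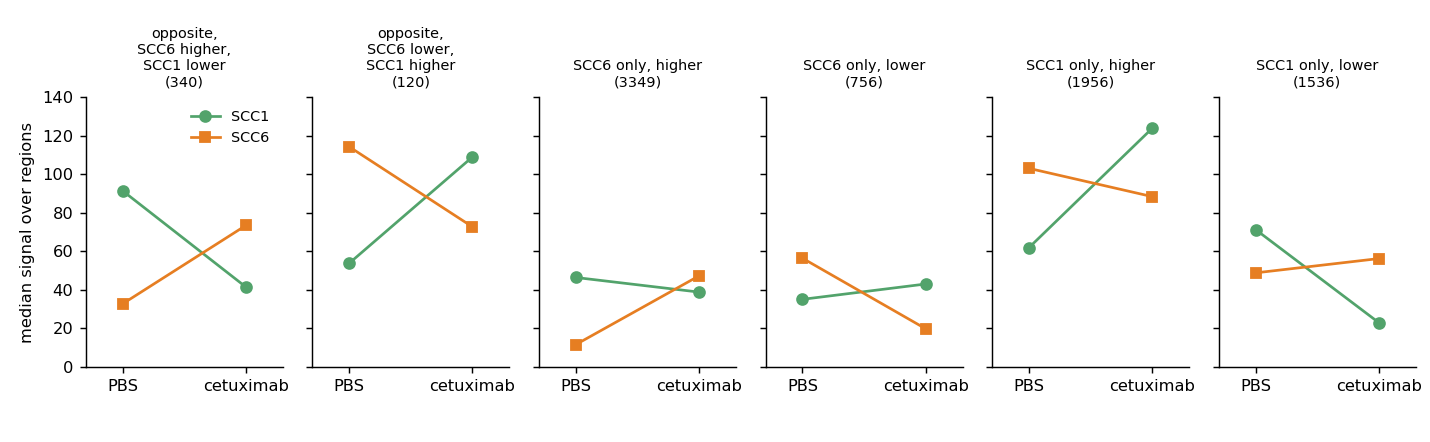
Median signal over the regions of each class, without (PBS) and with cetuximab, for SCC1 and SCC6, with the number of regions in each panel's title. In SCC6-only gains the SCC6 median climbs from 11.6 to 47.3, near the untreated SCC1 median of 46.4, and the choice of these regions favours the low start. In the first opposite class the lines cross, SCC6 from 32.8 to 73.4 and SCC1 from 91.4 to 41.5, which the choice of its regions favours.

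The central 200 bases of the classes differed in the motifs they held. The AP-1 motif was in 38.8% of SCC1-only losses, against 21.5% of all tested regions, 27.4% of SCC6-only losses, 18.8% of SCC6-only gains and 24.4% of the regions higher in SCC6 and lower in SCC1. Within bands of GC content the share in SCC1-only losses was 37.7% below 45% GC, 41.9% from 45 to 55% and 31.0% above, against 22.2%, 29.8% and 11.3% of all tested regions in the same bands. In SCC6-only losses it was 40.1%, 31.6% and 16.5%. TEAD motifs were in 12.9% of SCC6-only gains and in 11.8% of opposite regions higher in SCC6, against 6.31% of all tested regions and 7.29% of SCC1-only losses. In the same bands of GC content they were in 13.5%, 12.5% and 11.3% of SCC6-only gains and in 7.30%, 8.11% and 2.80% of all tested regions. SCC1-only gains held them in 13.5%, 11.3% and 1.72%. The RUNX motif (TGTGGTT) was in 9.73% of SCC6-only gains and 10.3% of SCC1-only losses against 6.20% overall. Losses in SCC6 only held the CAGGTG E-box in 26.2% and the FOX motif (TGTTTAC) in 8.07%, against 16.5% and 3.81% of all tested regions. The TFAP2 motif was in 24.3% of SCC1-only gains, close to its 25% in all tested promoters and above its 10.1% in all tested regions. Motifs were counted on both strands, a motif match is not a bound site, and these shares describe the classes with no test.

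With the deposited scaling the direction at promoters was the reverse of that at distal regions. Of 14346 promoter regions tested, 1963 had an interaction (13.7%), with the SCC6 change below the SCC1 change in 1743 (12.1%) and above it in 220 (1.53%). Elsewhere, 5605 of 71969 regions (7.79%) lay above and 1540 (2.14%) below. GC content moved with this split. From under 35% GC to 70% and more, the median change in SCC6 went from 0.47 to -0.16, while in SCC1 it was 0.22, -0.25 at 45 to 50% GC and 0.29 in the most GC-rich regions. In the latter, 15.9% of regions were called below and 0.257% above, and at 45 to 50% GC 1.87% were below and 10.7% above. Across regions, Spearman's correlation of GC content with the change was -0.320 in SCC6, 0.0481 in SCC1 and -0.288 for the difference, as a description over 86315 regions that share libraries. The deviation of each library from the mean of all 11 at a region also followed GC content. Its correlation with GC content was 0.340 to 0.484 in SCC1 and -0.502 to -0.353 in SCC6. In both lines the cetuximab libraries lay further from 0. As the mean is shared by the lines, the opposite signs are relative and do not describe signal itself. Once the trend with GC content was removed from each library, 584 promoters remained below and 312 above, and scaling to regions that hold no peak left 765 below and 525 above. Centring each library on its median gave 4685 promoters below and 88 above, and then the other regions also lay mostly below, 4199 against 3086 above. Chromosome 19, rich in genes and GC, had the largest share of regions below (21.4%), followed by 22 (15.8%) and 17 (13%).

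**Figure D4:**
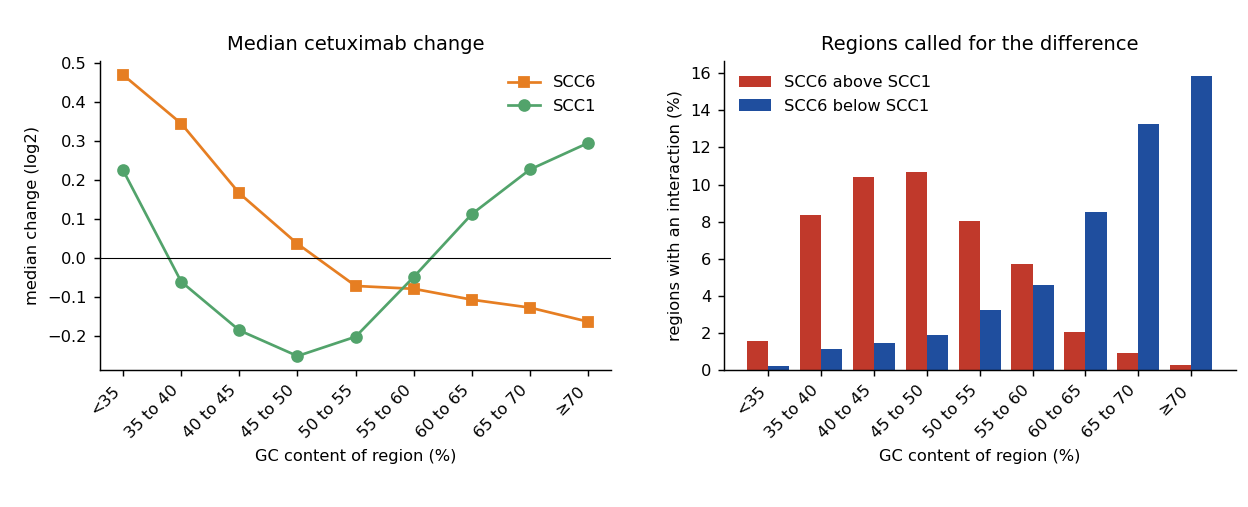
Regions grouped by GC content (horizontal axis, %). The left panel shows the median change under cetuximab (log2) in SCC6 and SCC1, which cross near 55 to 60% GC, and the right panel the percentage of regions called above or below, where the calls pass from 10.7% above at 45 to 50% GC to 15.9% below at 70% and over.

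Against the majority, 220 promoters had a higher change in SCC6 than in SCC1. The promoter of HHAT, the acyltransferase of Hedgehog ligands (chr1:210612213-210613068), rose in SCC6 from 110, 90.3 and 114 to 340, 319 and 339 and fell in SCC1 from 125 and 119 to 88.9, 81.8 and 76.7, a difference of 2.23 ± 0.21 (limma adjusted p = 3.11e-05). The promoter of NNMT, which methylates nicotinamide, rose from 135, 100 and 108 to 217, 182 and 168 in SCC6 and fell from 303 and 284 to 156, 152 and 113 in SCC1. MT2A, a metallothionein, went from 138, 138 and 174 to 300.03, 326 and 270.4 in SCC6 and from 379.9 and 362 to 218, 119 and 213 in SCC1. For OXCT1, an enzyme that uses ketone bodies, the changes were 1.19 ± 0.21 and -1.16 ± 0.23. TP73, a p53 family member, had a promoter nearly closed in untreated SCC6 (6.04, 8.7 and 7.61) that rose to 61.6, 61.3 and 52.6, while its SCC1 change of -0.58 ± 0.26 did not pass (adjusted p = 0.159). NNMT, MT2A and OXCT1 stayed opposite under all 5 other scalings and HHAT under 3.

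Below, beside FBXL12, UNC13D and the TMEM205 promoter, stood the shared promoter of ST13 and XPNPEP3 (chr22:41252279-41253183) and that of ATG4D (chr19:10654220-10654760). ATG4D, an autophagy protease gene, fell in SCC6 from 209, 203 and 176 to 116, 110 and 116 and rose in SCC1 from 20.8 and 29.0 to 57.1, 54.5 and 62.6. It stayed opposite under all 5 scalings, and ST13, which encodes a partner of the chaperone HSP70, under 4. Of these 5 promoters, 3 are on chromosome 19.

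At EGFR, the receptor that cetuximab binds, the promoter region of highest mean signal had a difference of -0.19 that did not pass (adjusted p = 0.692). Other regions of the gene did. One of them lies 37 bp from a further EGFR start (chr7:55177063-55177379). Its signal was 118, 127 and 116 in untreated and 153, 179 and 159 in treated SCC6, and 104 and 132 in untreated and 104, 89.5 and 82.9 in treated SCC1, where the groups met. The difference was 0.78 ± 0.23 (adjusted p = 0.0372). It was called in neither line alone and the difference was kept under 3 of the 5 other scalings. Of the 31 tested regions whose nearest protein-coding start within 100 kb was that of EGFR, 10 were called above and 0 below, against a background of 6.43% above and 4.66% below for the 63462 linked regions. The difference was positive at 26 of the 31, with a median of 0.67, 6 of the called regions were SCC6-only and 1 was SCC1-only, and 5 kept the call under all 5 other scalings. The one with the smallest adjusted p overlaps an exon of EGFR (chr7:55111339-55111798). Its signal rose in SCC6 from 62.8, 51.5 and 47.9 to 156, 167 and 166, with no overlap, and was 121 and 118 untreated and 133, 89.5 and 90.8 treated in SCC1, where the libraries overlap. The difference was 1.80 ± 0.27 (adjusted p = 0.000819). An intronic region (chr7:55121353-55122085) rose from 106, 103 and 92.4 to 176, 174 and 152 in SCC6 and went from 181 and 170 to 123, 130 and 127 in SCC1, with a change there of -0.46 ± 0.15 (adjusted p = 0.0527).

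IGF1R is the insulin-like growth factor 1 receptor and another route into PI3K signalling. It was the 1 gene of the study's 9 receptors and markers with a call at its promoter region of highest mean signal. That region overlaps an IGF1R start site, has a GC content of 45.9% and held a peak in 2 of 5 SCC1 and 6 of 6 SCC6 libraries. The signal there (chr15:99433224-99433772) was 96.7, 79.6 and 90.3 in untreated and 181, 145 and 167 in treated SCC6, and 75.5 and 84.9 in untreated and 47.0, 50.6 and 56.3 in treated SCC1. Treated and untreated libraries separated in both lines, upwards in SCC6 (0.88 ± 0.17) and downwards in SCC1 (-0.64 ± 0.19), and the difference was 1.51 ± 0.25 (adjusted p = 0.00166). Both signs were kept under all 5 other scalings and both calls under 2. A region 33.5 kb from the nearest IGF1R start site (chr15:99157966-99158279) opened in SCC6 from 1.21, 2.01 and 3.26 to 29.3, 23.2 and 28.1. In SCC1 it stood at 70.3 and 87.1 and then 68.5, 64.2 and 62.6. In all, 7 of the 43 regions linked to IGF1R were called above and 1 below. The one below is also at a promoter of IGF1R, 729 bp from a different start site (chr15:99190558-99191039), and went the other way. There SCC6 fell from 83.4, 80.3 and 94.6 to 47.5, 45.5 and 56.9. SCC1, which did not pass, was at 82.0 and 114 and then 131, 97.3 and 149 (difference -1.13 ± 0.30, limma adjusted p = 0.022).

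For the other 8 genes the promoter region of highest mean signal did not pass: TFAP2A -0.16 (adjusted p = 0.482), VIM 0.47 (adjusted p = 0.441), AXL -0.89 (0.136), ERBB2 -1.19 (0.0612), TGFBR3 -0.07 (0.896), FGFR1 0.15 (0.912) and VEGFA -0.31 (0.559), beside EGFR. For TFAP2A, TGFBR3, FGFR1 and VEGFA, as for EGFR, the sign changed under at least 1 alternative. TFAP2A, AXL and ERBB2 passed, with a negative difference, under at least 1 of the 5 other scalings. Elsewhere in these genes there were called regions. A short region at a start site of VIM, the mesenchymal intermediate filament gene (chr10:17271167-17271344), was low in all libraries and moved in opposite ways. It rose in SCC6 from 4.83, 4.01 and 6.53 to 27.3, 22.3 and 28.1 and fell in SCC1 from 3.9 and 11.2 to 1.27, 1.95 and 1.56, where the treated SCC1 values are those of a single read or none. Near TFAP2A (11.8 kb, chr6:10431636-10431949) SCC6 rose from 21.7, 32.8 and 45.7 to 81.8, 58.5 and 69.1 and SCC1 fell from 148 and 140 to 78.7, 77.9 and 78.2, an opposite call kept under 2 of 5 scalings against all 5 for the VIM region.

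Counted by linked regions, the gene with the most calls above was NAV2, a cytoskeleton-associated protein gene, at 16 of 44 and 0 below. Of these, 10 were SCC6-only, 5 SCC1-only and 1 opposite. BHLHE40, a transcriptional repressor of the clock and stress responses, had 9 of 17 regions above and 0 below, and all but 1 of the 17 had a positive difference. All 9 SCC1 calls at BHLHE40 were losses and all 6 SCC6 calls gains, and 4 regions were opposite. In the one 6.31 kb from the start (chr3:5027431-5027810), SCC1 fell from 130 and 109 to 38.1, 25.3 and 51.6 and SCC6 rose from 41.1, 39.5 and 42.4 to 92.9, 94.7 and 85.0. TNS3, a focal adhesion gene, had 9 of 40 above and 0 below, and ASAP1, a regulator of ARF GTPases, 8 of 55 above and 1 below.

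Genes with the most calls below, tied at 5, had few linked regions, among them PLA2G6, a phospholipase (5 of 7), PTGES, a prostaglandin E synthase (5 of 8), ERCC1, a subunit of the excision repair nuclease (5 of 10), MYO18A, an unconventional myosin (5 of 10), and EPB41L1, a membrane skeleton gene (5 of 13). BAIAP2, a regulator of actin, also had 5 of 13. At ERCC1 none of the 10 regions had a positive difference and SCC1 gained at 5. In the opposite region there (chr19:45946750-45947025) SCC1 rose from 19.5 and 24.6 to 55.8, 58.4 and 61.0 and SCC6 fell from 120, 80.3 and 90.3 to 35.4, 65 and 55.5. The calls kept under all 5 other scalings were 4 of 5 at ERCC1, 2 at EPB41L1 and 1 each at PLA2G6, PTGES and MYO18A.

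Gene lists were read by the promoter with the highest mean signal of each gene, for which the background over 12582 genes was 14.9% below and 0.962% above. Among the AP-1 genes 5 of 12 tested promoters, MAFK, FOSL1, JUND, MAFF and FOS, had a lower change in SCC6 than in SCC1 and 0 a higher one, with a list median of -1.15. FOSL1, an ERK-induced AP-1 subunit, fell in SCC6 from 114, 126 and 107 to 62.6, 93.8 and 75.0 and rose in SCC1 from 92.4 and 84.9 to 183, 121 and 188, a difference of -1.44 ± 0.29 (adjusted p = 0.00493). MAFK, a small MAF protein, moved in SCC1, from 20.8 and 29.0 to 92.7, 70.1 and 93.9, and was at 105, 95 and 87.0 and then 79.8, 109 and 110 in SCC6 (adjusted p = 0.00278). In the epithelial junction list 5 of 17 were below, PKP3, TJP3, CLDN7, CDH1 and EPCAM, and 0 above. CDH1, E-cadherin, lost its call in 10 of 27 alternatives.

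DNA replication and mitosis genes were below at 8 of 30 and above at 0, with a median of -0.37. The TOP2A promoter, of the mitotic topoisomerase, rose in SCC1 from 100 and 114 to 251, 171 and 202 and was at 110, 95.7 and 96.8 and then 72.7, 85.4 and 93.2 in SCC6, whose change of -0.27 ± 0.17 did not pass. The BCL2 family had 4 of 12 below, BAX, BID (lost in 4 of 27 alternatives), BAD (lost in 8) and BCL2L2 (lost in 15). At BAX, a pro-apoptotic member, SCC1 rose from 32.5 and 45.8 to 104, 85.6 and 114 and SCC6 was at 72.5, 81.6 and 65.3 and then 52.5, 54.8 and 49.9, a difference of -1.83 ± 0.30 (adjusted p = 0.0015). Among the NOTCH genes 3 of 9 were below, NOTCH1 (-1.64), HES4 and DLL1, and among lipid and sterol genes FASN (-1.44), SREBF2 and PPARD were below. YAP and TEAD genes had 3 of 17 below, all TEAD genes (TEAD2, TEAD3 and TEAD4), and interferon-stimulated genes 3 of 21, among them IRF9 and STAT2 (-0.94), subunits of 1 transcription factor complex.

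KRT15, a basal keratin, was the 1 of 10 keratin promoters with a call. It fell in SCC6 from 209, 168 and 224 to 108, 87.3 and 126 and rose in SCC1 from 116 and 113 to 208, 154 and 208, a difference of -1.62 ± 0.25 (adjusted p = 0.00113), and was opposite under all 5 other scalings. The remaining lists with calls only below had 1 or 2 each, beside a background of 14.9%. They were ERK feedback with 2 of 20 (10%), integrins and laminin-332 with 2 of 12 (16.7%, ITGB4 and ITGA6) and squamous factors with 2 of 13 (15.4%, KLF4 and GRHL1). The others were TFAP2 with 1 of 2 (TFAP2C), EMT with 1 of 19 (SNAI1), TGF-beta with 1 of 16 (SMAD3) and matrix proteases with 1 of 10 (PLAUR). Each of these lists had 0 above. Of the promoters named from lists, the calls of ITGA6 (15 of 27 alternatives), TFAP2C (14), DLL1 (14), SNAI1 (13), PPARD (13), SREBF2 (12), MST1R (12), SESN1 (12) and TEAD2 (10) were lost at least as often as that of CDH1. Calls above were few. They were CSF2 and CXCL8 among 14 inflammatory cytokines, PDCD1LG2, the gene of the immune checkpoint ligand PD-L2, among 5 antigen presentation genes, and IGF1R, which is in the lists of bypass receptors (1 above and 1 below, MST1R, of 12) and of insulin genes (1 above and 1 below, SESN1, of 18). CSF2, encoding GM-CSF, fell in SCC1 from 41.6 and 56.9 to 7.62, 15.6 and 7.82 and was at 76.1, 54.2 and 82.7 and then 60.6, 59.4 and 53.6 in SCC6. CXCL8 lost its call in 22 of 27 alternatives and PDCD1LG2 in 14. No promoter had a call among 7 ERBB receptors and EGFR ligands, 5 cornified envelope genes and 13 CDK inhibitor and G1 genes. Because promoters as a whole lay below and this moved with GC content, the counts are set against the background and nothing particular to a list is read from them.

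**Figure D5:**
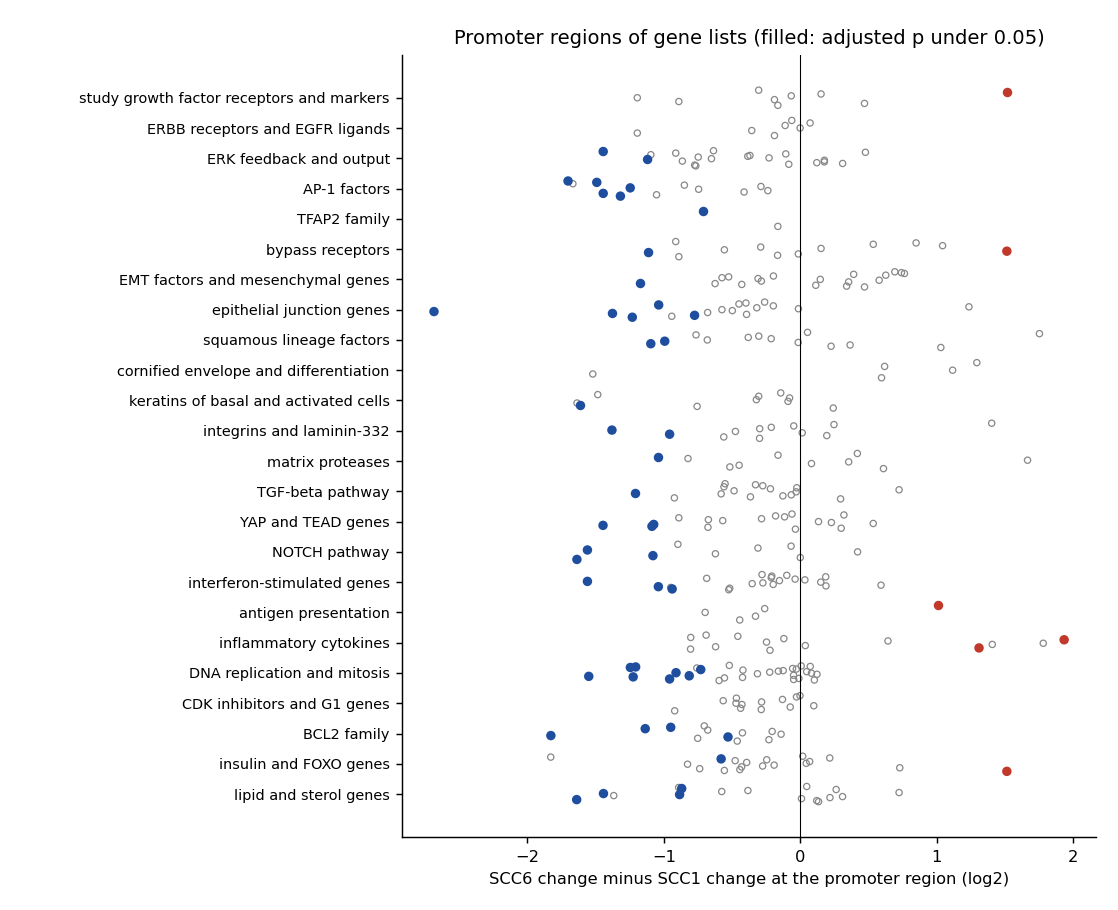
SCC6 change minus SCC1 change (log2, horizontal axis) at the promoter of each tested gene of the 24 lists (vertical axis), with filled points for an adjusted p under 0.05. Most filled points lie to the left of 0, as in the AP-1 list with 5 of 12, and those to the right are IGF1R, CSF2, CXCL8 and PDCD1LG2.

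Regions linked to the listed genes by distance were counted separately from their promoters. For ERBB receptors and EGFR ligands 14 of 70 linked regions were above (20%) and 0 below, of which 10 are those at EGFR. Besides these, a region 34.3 kb from AREG, the amphiregulin gene (chr4:75275986-75276512), rose in SCC6 from 24.2, 27.4 and 18.5 to 43.4, 54.8 and 65.5 and went from 161 and 146 to 91.4, 95.4 and 102 in SCC1, where the change of -0.67 ± 0.24 did not pass (adjusted p = 0.0737). The lists of EMT genes (22 of 164 above, 13.4%) and of integrins and laminin-332 (17 of 125, 13.6%) were also over the 6.43% background, with 6 and 3 below. AP-1 genes had 4 of 74 above and 12 below, DNA replication genes 2 of 65 and 10, keratins 0 of 55 and 6.

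The list of ERK feedback and output genes as a whole had 8 of 146 linked regions above (5.48%) and 7 below (4.79%), close to the background. The single regions that follow were chosen after their values were seen. In one 18 kb from DUSP6, the ERK phosphatase whose expression reports ERK activity (chr12:89764312-89765032), SCC6 rose from 23.0, 28.1 and 21.8 to 89.9, 76.1 and 89.3 while SCC1 fell from 196 and 252 to 117, 130 and 98.6. The difference was 2.73 ± 0.28 (adjusted p = 7.09e-05) and the call stayed opposite under all 5 other scalings. A region 47.7 kb from MYC did likewise, from 37.5, 27.4 and 23.9 to 63.6, 60.3 and 68.8 in SCC6 and from 325 and 313 to 170, 154 and 163 in SCC1. In an intron of YAP1 (chr11:102094556-102094877) SCC6 rose from 174, 203 and 151 to 305, 297 and 350 and SCC1 fell from 83.3 and 123 to 60.9, 62.3 and 37.6, with an opposite call under 4 of the 5 scalings.

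SCC6-only gains lay near TP63, the master regulator of squamous epithelium (58.6 kb, chr3:189290035-189290575), where SCC6 rose from 41.1, 42.2 and 38.1 to 161, 162 and 186 and SCC1 was between 28.2 and 35.7 in all libraries. In an intron of TGFB2 (chr1:218548060-218548654) SCC6 rose from 35, 28.1 and 29.4 to 166, 176 and 166 against 14.0 to 32.5 in the SCC1 libraries. SCC1-only losses lay near LAMB3, a chain of laminin-332 (4.72 kb, chr1:209830494-209830927), from 152 and 134 to 27.9, 29.2 and 23.5, with SCC6 at 145, 203 and 172 and then 114, 110 and 140. Another was 64.7 kb from JUN (chr1:59314378-59315073), where SCC1 fell from 334 and 291 to 135, 160 and 122 and SCC6 was at 220, 213 and 219 and then 264, 227 and 214. In the SCC6 libraries of the latter, treated and untreated values overlapped.

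SCC25, the other line of the series, was treated in the same way and is given beside these classes only. Of the regions higher in SCC6 and lower in SCC1, 40% had a higher mean after cetuximab in SCC25, and of the reverse 64.2%, against 50.2% of all tested regions. The share was 51.1% for SCC6-only gains, 37.0% for SCC6-only losses, 67.5% for SCC1-only gains and 25.5% for SCC1-only losses. These shares are not adjusted for promoter or GC content, with which the SCC25 change also varied. Of all tested promoters 54.8% were higher in SCC25. Its median change was 0.44 below 35% GC, -0.10 at 45 to 50% and 0.095 at 70% and more. In SCC25, 48 regions were called at the same threshold (0.0556% of those tested, 42 higher and 6 lower). These calls came from a limma fit of all 17 libraries. Regions had been kept by mean signal in the 11 SCC6 and SCC1 libraries, so some open in SCC25 may be left out. Of the 48, 11 were SCC6-only gains, 1 was an SCC1-only gain and 1 moved the same way in SCC6 and SCC1 to unequal extents. Among the 460 opposite regions there were 0.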

How the data were processed

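The 11 ATAC-seq libraries used were made from cells collected after 5 days. Per the labels and the study's methods, the authors trimmed reads with Trim Galore 0.5.0, aligned them to hg19 (GRCh37) with Bowtie2 2.3.2, used Picard 2.18 against duplicates and reads of the mitochondrial genome and SAMtools 1.9 against reads that were unmapped or of low quality, called peaks in each library with MACS2, and counted reads over the joint peak set with DiffBind. The authors deposited 1 table of signal per region, which here is whole reads (0 set to 1) times 1 constant per library: 100% of values were whole multiples within a tolerance of 0.001. The deposited peak lists give a fold enrichment, a score, and -log10 of the p-value and q-value for each peak, and served here to count which regions hold a peak. Depth was 2194851 to 15017130 reads in regions per library.

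The log2(signal + 1) values of the 4 groups were fitted together with limma 3.58.1 (trended, robust, two-sided) in R 4.3.3, without a replicate block or GC term, after leaving out the lowest 25% of 115087 regions by mean over the 11 libraries. P-values were adjusted by Benjamini-Hochberg over the 86315 regions at 0.05. Classes were set by the calls on the difference and on each line. Values listed for single libraries are the deposited signal. Promoters are regions within 1 kb of 1 of 78714 protein-coding start sites (GENCODE v44lift37), and a region was linked to the nearest such start within 100 kb. Sequences were read from GRCh37.

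Named items were the promoters of 9 genes of the study, in each direction the 5 opposite regions of smallest adjusted p without overlap of libraries, 3 regions per line and direction called in 1 line only whose change in the other line had a 95% interval within ±1, 5 promoters and 5 genes (with at least 80% of calls one way) in each direction, and up to 4 called promoters of each of 24 gene lists. Further members, and the linked regions given for listed genes, were chosen after their values were seen. The members and lists were chosen with earlier results of these data known. On simulated data with dispersion 0.05, 45 of 200 regions given a log2 difference of 2 were recovered among 86315, with 2 false calls of 47. Alternatives included 5 scalings, edgeR 4.0.16 and DESeq2 1.42.0 on the recovered reads, thinning to equal reads, other filters and pseudocounts (0.5 and 5), a replicate block and leaving out each library. SCC1 PBS replicate 2 was not analysed here, and a few items that the rule named are not reported here. Replicate pairs of a group correlated at 0.917 to 0.945 and differed by more than counting noise. Figures were drawn with matplotlib 3.10.9.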

Additional observations from a re-analysis of the deposited data

Results flagged for a closer look

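The response differed between SCC6 and SCC1, by the test of the difference itself, at 9108 regions, of which 460 moved in opposite ways, 4105 were called in SCC6 only and 3492 in SCC1 only. Promoters made up 1963 of the 9108. The IGF1R promoter region of highest mean signal was among the opposite regions, with an SCC6 change minus SCC1 change of 1.51 on the log2 scale. It kept its call on the difference under all 27 alternatives that gave it a value, but stayed opposite under only 2 of the 5 other scalings. Another promoter region of IGF1R, at a different start site, went the other way, with a called difference of -1.13. No cause was tested.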

How the results depend on the processing

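No named region changed the sign of a call under any alternative. Over the named regions and promoters, 1164 comparisons with an alternative that kept all libraries gave the same call, 116 lost it and 14 gained it. The counts moved more. With the GC trend removed there were 5429 regions with an interaction, 265 opposite, 1883 called in SCC1 only and 896 promoters. Thinning all libraries to the 2194851 reads of the shallowest gave 4681 regions, 188 opposite, 2405 SCC6 only, 1523 SCC1 only and 940 promoters, from fewer reads. At an adjusted p under 0.01 there were 3093, 84, 1661, 966 and 561. Centring on the median gave 855 opposite and 4773 promoters, scaling to regions that hold no peak 745 and 1290, and edgeR on recovered reads 1137 and 3787. Quantile normalization gave 6762 regions in SCC6 only. The cause of these shifts was not tested.

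No pairing by replicate number was seen: cetuximab and PBS libraries of the same number correlated at -0.016 to 0.038 in their deviations from the group means. The check cannot exclude a pairing, since groups are small and the deviations of the only PBS libraries of SCC1 mirror each other. A replicate block, which by its construction also takes SCC1 cetuximab replicate 2 out of the contrast since it has no PBS partner, gave 729 opposite regions, 3231 promoters and 11864 interactions, beside 804, 3378 and 12259 without that library alone. With the GC trend removed as well the block gave 4971 interactions, 260 opposite, 2389 SCC6 only, 1907 SCC1 only and 988 promoters.

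Leaving out 1 library gave 5348 to 12259 interactions, 143 to 804 opposite regions, 2560 to 4624 in SCC6 only, 1533 to 5451 in SCC1 only and 1055 to 3378 promoters. Leaving out an SCC1 PBS library leaves 1 that is assumed to vary like the other groups. For interactions the count moved by over 1.5 times without SCC1 PBS replicate 1 (5348) and without SCC6 cetuximab replicates 1 (5727) and 3 (5535). Opposite regions numbered 143 and 241 without SCC1 PBS replicates 1 and 3, 804 without SCC1 cetuximab replicate 2, 257, 258 and 250 without SCC6 cetuximab replicates 1, 2 and 3, and 305 without SCC6 PBS replicate 2. SCC6-only regions numbered 2695 and 2560 without SCC6 cetuximab replicates 1 and 3. SCC1-only regions numbered 1533 and 2238 without SCC1 PBS replicates 1 and 3, and 2230 and 2117 without SCC6 cetuximab replicates 1 and 3. Leaving out SCC1 cetuximab replicate 2 raised them to 5451. Promoters numbered 1055 without SCC1 PBS replicate 1, 3378 without SCC1 cetuximab replicate 2, and 1111, 1308 and 1224 without SCC6 cetuximab replicates 1, 2 and 3.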
